A study of Mus musculus with 12 samples.

Results

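Cav1 and Cav2, the genes of caveolin-1 and caveolin-2, are 2 of the 24475 genes in an expression table of mouse liver. They were picked by symbol after an earlier look at the same contrast had shown Cav1 to differ between the genotypes, so their differences between groups are described here and not tested. The labels call the samples liver of fed animals in 2 groups, 6 wild-type libraries (WT) and 6 libraries from mice without Gcg (Gcg KO, also written Gcg-/-), the gene of the glucagon precursor. They give no strain, sex, age, construct of the null allele or batch, and do not say that each library came from its own animal, so the p-values measure the spread between these libraries, which may be technical. The series title places the study in the question of whether glucagon contributes to the zonation of the liver. Below, a library goes by its label's number, from 1 to 6 in the WT group and from 7 to 12 in the Gcg KO group.

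Caveolins are hairpin-shaped membrane proteins that bind cholesterol and, together with cytoplasmic coat proteins called cavins, bend the plasma membrane into small flask-shaped pits, the caveolae. Caveolin-1 is needed to form caveolae outside striated muscle, and caveolin-2 forms hetero-oligomers with it and depends on it to leave the Golgi. Both are abundant in endothelial cells, adipocytes and fibroblasts, and are scarce in hepatocytes, where caveolin-1 has been linked to lipid droplets and to cholesterol and bile handling. Glucagon acts on hepatocytes through its receptor, cyclic AMP and the transcription factor CREB.

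Expression was given by the authors as RPKM, read counts scaled to gene length and to the size of the library, which allows levels of genes to be set side by side. The estimated depth was 11600000 to 15000000 reads in the WT libraries and 10300000 to 13700000 in the Gcg KO libraries. Gcg itself was at 0 RPKM in each of the 12 libraries, so it checked no label, while albumin (Alb), the defining hepatocyte product, lay between 22432 and 31956 RPKM. On the first principal component (27.9% of the variance) WT 6, Gcg KO 10 and Gcg KO 12 had the highest scores, 17.0, 28.3 and 28.8, and the other 9 libraries lay between -21.9 and 6.99. At the other end WT 4 and WT 5 had -21.9 and -21.2, farther from 0 than WT 6, and were left out only 1 at a time. Values without the 3 libraries of highest score are given below where they bear on a result.

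The 2 genes are neighbours on mouse chromosome 6 (GRCm38), both on the plus strand. Cav2 (Entrez 12390) runs from 17281185 to 17289130 and Cav1 (Entrez 12389) from 17306335 to 17341328, with 17204 bp between them. The 250 bases before each gene's start are shown because the genes lie side by side and both had higher levels in the Gcg KO libraries. They are RefSeq sequence of GRCm38, 5′ to 3′, and capitals mark matches to the motifs searched.

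Cav2, chr6:17280935-17281184, plus strand: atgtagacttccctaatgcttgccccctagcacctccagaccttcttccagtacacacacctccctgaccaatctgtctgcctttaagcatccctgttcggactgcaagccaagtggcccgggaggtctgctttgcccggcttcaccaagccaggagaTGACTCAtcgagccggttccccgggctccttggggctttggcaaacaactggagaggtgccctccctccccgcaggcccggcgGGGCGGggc

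Cav1, chr6:17306085-17306334, plus strand: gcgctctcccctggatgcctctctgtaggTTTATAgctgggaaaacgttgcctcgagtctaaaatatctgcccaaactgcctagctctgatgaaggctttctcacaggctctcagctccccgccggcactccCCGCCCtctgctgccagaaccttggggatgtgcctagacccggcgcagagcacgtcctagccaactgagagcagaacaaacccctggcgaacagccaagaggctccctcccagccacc

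In the Cav2 sequence the capitals are an AP-1 element (TGACTCA, the first match) and a GC box of the kind bound by Sp1 (GGGCGG). In the Cav1 sequence they are TATAAA on the minus strand (the first match) and GGGCGG on the minus strand. Each motif was searched on both strands in the same 250 bases of 32851 RefSeq promoters, where TGACTCA was found in 4.46%, TATAAA in 12.4% and GGGCGG in 32.7%. The cyclic AMP response element, in full (TGACGTCA, 1.55% of promoters) or as its short form TGACG (17.8%), was not among the letters of either window. Also without a match were the forkhead element GTAAACA (3.17%), the E-box CACGTG (6.02%), the sterol regulatory element (0.0731%) and the PPAR response element (0.0335%). TGACG lies inside TGACGTCA, so promoters with the full element are also counted for the short one. A further Cav1 transcript starts at 17307640, and the 250 bases before it held none of these motifs. The only other GENCODE gene that overlaps Cav1 and Cav2 is Gm15581 on the minus strand, and 0 of its exons overlap theirs.

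Cav1 was low in every WT library and far higher in every Gcg KO library. In WT libraries 1 to 6 it stood at 0.813, 1.24, 0.884, 0.941, 1.29 and 1.31 RPKM. In Gcg KO libraries 7 to 12 it stood at 19.2, 11.4, 16.9, 26.4, 29.7 and 32.0 RPKM. The groups did not overlap, and the lowest Gcg KO library, number 8, was 8.70 times the highest WT library, number 6. The Gcg KO mean of 22.6 ± 8.03 RPKM was 20.9 times the WT mean of 1.08 ± 0.226 RPKM (SD, n = 6 each). On the log2(RPKM + 0.5) scale the difference was 3.80 ± 0.21 (SE), and it was 3.62 ± 0.22 without the 3 libraries highest on the first component. Among all genes ordered by RPKM within a library, Cav1 was between the 9577th and 10509th in WT and between the 1665th and 3503rd in Gcg KO.

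Cav2 was also higher in every Gcg KO library, by a smaller step. In WT libraries 1 to 6 it stood at 0.501, 0.775, 0.726, 0.835, 1.13 and 0.774 RPKM. In Gcg KO libraries 7 to 12 it stood at 2.02, 1.82, 2.25, 1.86, 1.35 and 2.34 RPKM. The groups did not overlap, but the lowest Gcg KO library, number 11, was only 1.20 times the highest WT library, number 5. Mean Cav2 was 0.790 ± 0.202 RPKM in WT and 1.94 ± 0.353 in Gcg KO (SD, n = 6 each), a ratio of 2.46, and the log2 difference was 0.92 ± 0.13 (SE). Without the 3 libraries it was 0.87 ± 0.16. Among the 11347 genes tested, 3.09% had groups that did not overlap and 1.6% had groups that did not overlap with Gcg KO higher; the caveolins were chosen on this contrast, so nothing is read from their place in that share.

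**Figure D1:**
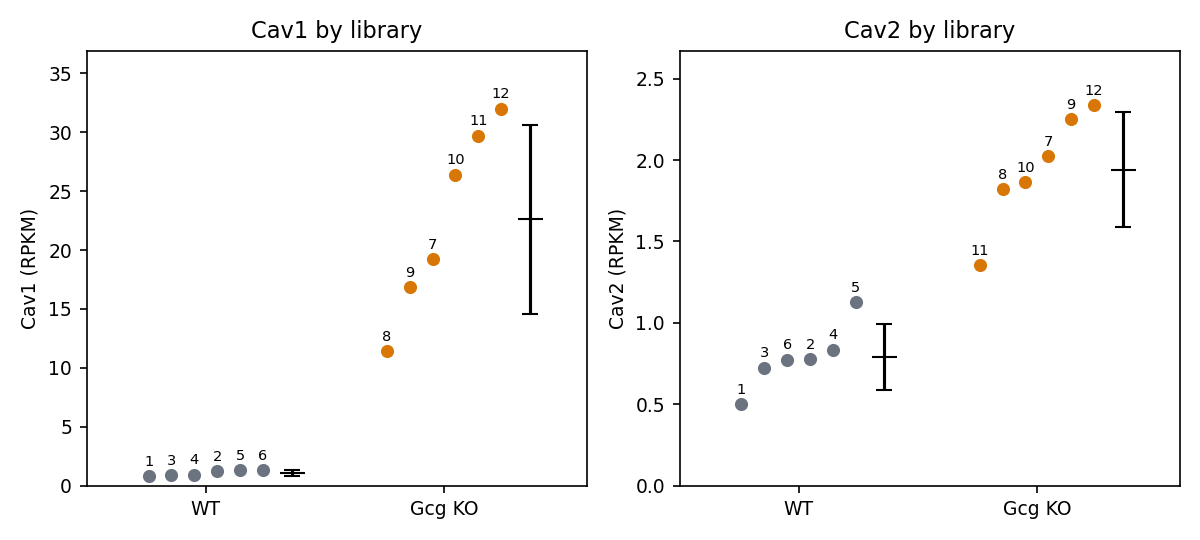
RPKM of Cav1 (left) and Cav2 (right) in each library, with grey points for WT, orange points for Gcg KO and library numbers beside the points, points spread by rank within a group, and the group mean ± SD as a black bar. All 6 Gcg KO libraries lie above all 6 WT libraries in both panels, by a wide gap for Cav1 (1.31 to 11.4 RPKM) and a narrow one for Cav2 (1.13 to 1.35 RPKM).

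The balance of the 2 caveolins differed between the genotypes, as the levels above imply. Cav1 was 1.13 to 1.70 times Cav2 in the WT libraries and 6.28 to 21.9 times Cav2 in the Gcg KO libraries. The library with the least Cav2 in the Gcg KO group, number 11, had the second-highest Cav1. Within WT, log2 levels of the caveolins gave Pearson r = 0.68 (exact permutation test, p = 0.110) and Spearman rho = 0.60 (exact permutation test, p = 0.242). Within Gcg KO they gave r = -0.12 (exact permutation test, p = 0.806) and rho = 0.20 (exact permutation test, p = 0.714), with n = 6 in each group. Adjusted over these 2 relations the Pearson p-values were 0.219 and 0.806 (exact permutation test), and those of Spearman 0.483 and 0.714 (exact permutation test). Without the 2 libraries farthest from the median of Cav1, r became 0.65 for WT and -0.90 for Gcg KO (n = 4 each). These relations were added after the data were seen.

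The caveolin levels rested on few reads in WT. From the estimated depth and a transcript length of 2522 bases, Cav1 rested on about 28 to 47 reads per WT library and 328 to 910 per Gcg KO library. Its coefficient of variation was 20.9% in WT and 35.5% in Gcg KO, and counting error at these reads comes to 16.9% and 3.82%. Cav2, with a transcript of 2733 bases, rested on about 20 to 36 reads in WT and 41 to 83 in Gcg KO. Its coefficient of variation was 25.6% in WT and 18.2% in Gcg KO, with counting error of 19.1% and 12.4%. Small differences among WT libraries in either gene are therefore not resolved at this depth.

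No other protein of caveolae passed the test. Of the 13 others listed, 9 were expressed highly enough to be tested, and limma called 0 higher and 0 lower after adjustment, where 3.87% of all genes tested were called, 1.95% higher and 1.92% lower (3 of the 9 had an unadjusted p below 0.05, as did 1783 or 15.7% of all genes tested). A count of 0 calls among 9 genes is near the 3.87% of all genes. The median log2 difference of the 9 was 0.01, equal to that of all genes tested (0.01), and their range was -0.24 to 0.22. Cavin1, listed under its older symbol Ptrf, is the coat protein without which caveolae do not form. Its level was 2.21 ± 0.261 RPKM in the WT group against 2.64 ± 0.246 in the Gcg KO group (SD, n = 6 each), a log2 difference of 0.21 ± 0.08 (limma adjusted p = 0.217). Cavin2, listed as Sdpr, which shapes the curved membrane, had 4.01 ± 0.737 and 4.25 ± 0.726 RPKM (adjusted p = 0.841). In the WT libraries both cavins were above Cav1, and in the Gcg KO libraries Cav1 was above both.

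Cavin3 (listed as Prkcdbp) fell short of the level tested, with 0.472 ± 0.122 RPKM in WT against 0.468 ± 0.238 in Gcg KO. The muscle forms were near or at 0: Cav3 was listed at 0 in 11 of 12 libraries and at 0.0575 RPKM in WT 2, and Cavin4 (listed as Murc) at 0 in all 12. Ehd2, an ATPase at the neck of caveolae, had 0.784 ± 0.116 RPKM in WT against 0.977 ± 0.197 in Gcg KO (adjusted p = 0.421). Its relatives Ehd1, Ehd3 and Ehd4, which act mainly in endosomal recycling, had log2 differences of -0.16, 0.01 and -0.04 (adjusted p = 0.267, 0.977 and 0.941). Pacsin2, an F-BAR protein that helps shape caveolae, had a log2 difference of -0.07 ± 0.09 (adjusted p = 0.791), and Pacsin3 one of -0.24 ± 0.11 (adjusted p = 0.294). Bin1, an N-BAR protein, had a log2 difference of 0.22 ± 0.18 (adjusted p = 0.616).

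**Figure D2:**
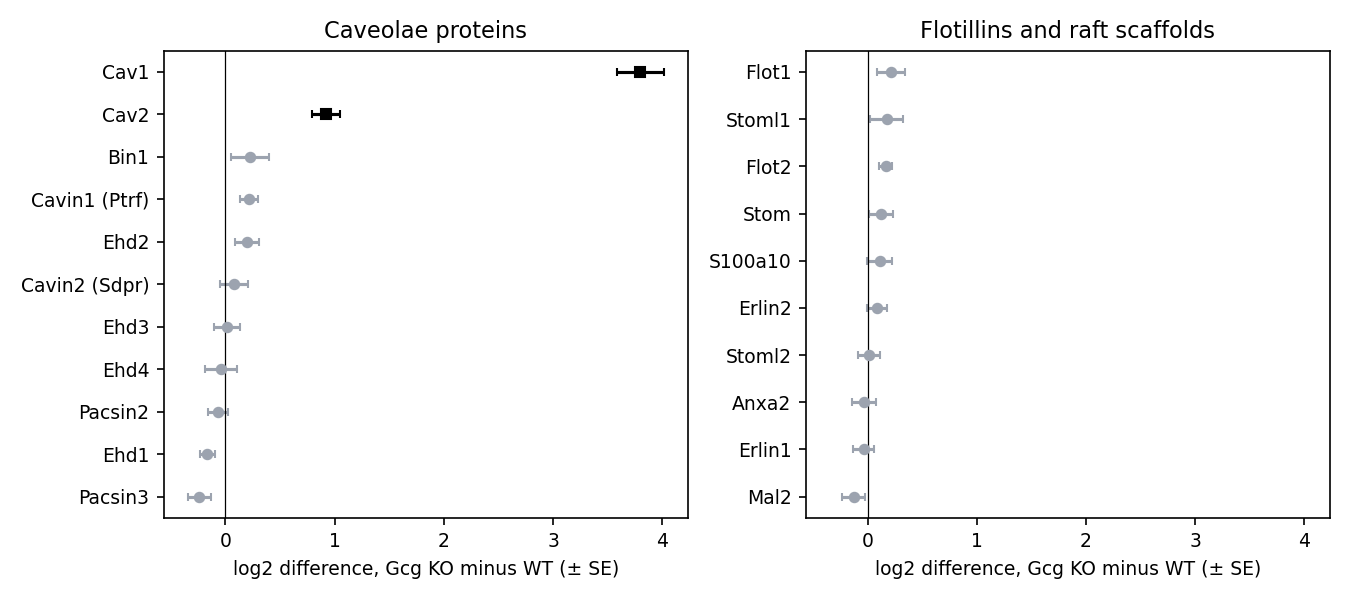
Log2 difference of log2(RPKM + 0.5), Gcg KO minus WT, with its standard error, for tested caveolae proteins (left) and for flotillins and other raft scaffolds (right). Black squares are Cav1 (3.80) and Cav2 (0.92), given without a test, and grey points are genes that did not pass the threshold, all between -0.24 and 0.22.

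No scaffold of other membrane rafts passed either. Flotillins and their relatives build flat raft domains without caveolins, and of 11 genes listed 10 were tested. Of these, 0 were called in either direction and 1 had an unadjusted p below 0.05 (median log2 difference 0.10). Over all genes tested these shares were 3.87% and 15.7%, so 0 calls among 10 genes is near the background. S100a10, the partner of annexin A2, had 101 ± 18.7 RPKM in WT against 108 ± 13.8 in Gcg KO (adjusted p = 0.736). Among 24 receptors, channels, kinases and scaffold proteins known to bind caveolin or to sit in caveolae, 21 were tested, 0 rose, 1 fell and 20 did not pass (median 0.11, 3 with an unadjusted p below 0.05), where 1.92% of all genes fell. The 1 that fell was Adra1b, the alpha-1B adrenergic receptor of hepatocytes, from 24.1 ± 2.91 to 19.4 ± 1.22 RPKM (log2 difference -0.30 ± 0.08, adjusted p = 0.0460). It passed under 7 of 21 alternatives, and lost its call when any library other than WT 1 was left out (log2 differences of -0.35 to -0.24 over the alternatives). The epidermal growth factor receptor Egfr had 160 ± 50.1 RPKM in WT against 131 ± 53.9 in Gcg KO (adjusted p = 0.602). The lipoprotein receptor Scarb1 had 53.1 ± 10.2 and 60.0 ± 9.05 RPKM (adjusted p = 0.555).

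The genes around the caveolin pair were few and none passed the test. RefSeq places 26 other genes within 1 Mb of the Cav1 start; 9 were in the table, 6 were tested, and 0 were called (also 0 at an unadjusted p below 0.05). Over all genes tested these shares were 3.87% and 15.7%, so a count of 0 among 6 genes is near the background. Their median log2 difference was 0.09. Met, the hepatocyte growth factor receptor, starts 157 kb after Cav1 and had 13.9 ± 1.75 RPKM in WT against 14.8 ± 1.32 in Gcg KO (adjusted p = 0.697). Capza2, an actin capping protein, had 28.8 ± 3.16 and 30.7 ± 1.97 RPKM (adjusted p = 0.620). Tes, a LIM protein of cell contacts 241 kb before Cav1, had 0.422 ± 0.290 and 0.602 ± 0.224 RPKM (adjusted p = 0.534). Wnt2, a Wnt ligand of liver endothelium that starts 679 kb away, had 1.38 ± 0.446 and 1.79 ± 0.348 RPKM (log2 difference 0.31 ± 0.16, adjusted p = 0.386). The transcription factor Tfec and St7 had log2 differences of -0.06 and -0.01 (adjusted p = 0.864 and 0.989).

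**Figure D3:**
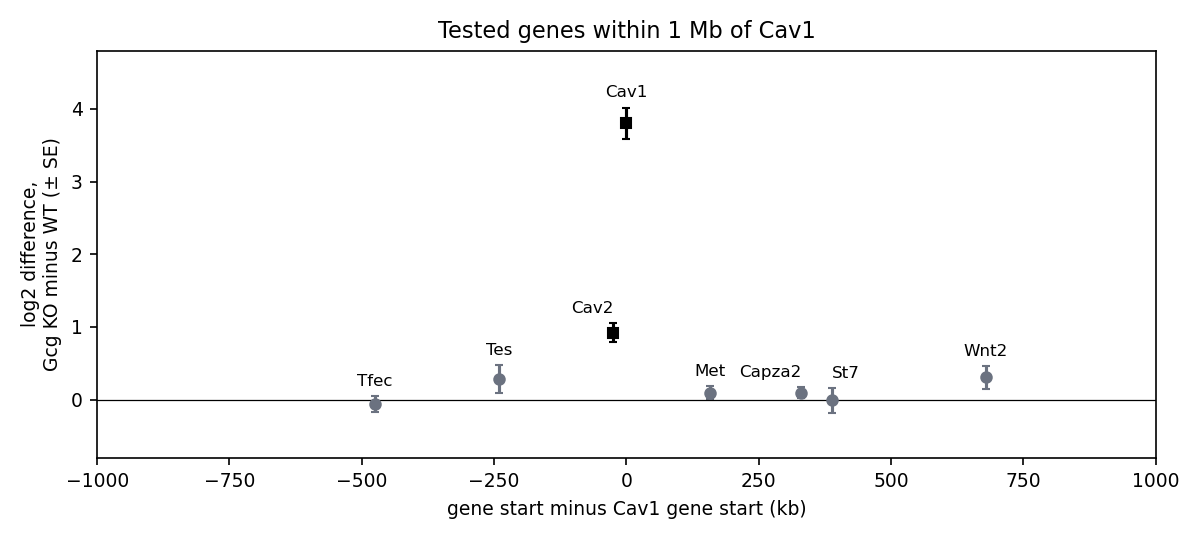
Log2 difference of expression, Gcg KO minus WT, with its standard error, for tested genes within 1 Mb of Cav1, placed by the distance of their start coordinate from that of Cav1 in kilobases. Black squares are the caveolins and grey points the other 6 genes, which lie between -0.06 and 0.31.

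Caveolins are typical of endothelium, so their levels were set beside endothelial genes. In whole tissue, fewer cells of a type and less RNA per cell cannot be told apart. Pecam1, the endothelial adhesion molecule CD31, ran from 4.46 to 6.04 RPKM in WT (median 5.19) and from 4.60 to 7.22 in Gcg KO (median 5.70), overlapping groups with a log2 difference of 0.17 ± 0.10 (adjusted p = 0.499). Kdr, the VEGF receptor 2, ran from 6.11 to 12.3 RPKM in WT (median 8.94) and from 7.02 to 11.5 in Gcg KO (median 9.77), again overlapping (0.08 ± 0.15, adjusted p = 0.865). Lyve1, a hyaluronan receptor of sinusoidal and lymphatic endothelium, rose. It ran from 2.06 to 4.43 RPKM in WT (median 2.75) and from 4.78 to 9.68 in Gcg KO (median 5.46), and the groups did not overlap (log2 difference 0.90 ± 0.18, adjusted p = 0.0125). Its call held in all 21 alternatives run, with log2 differences from 0.67 to 1.01.

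Across 35 liver endothelial genes, all tested, 2 rose, 0 fell and 33 did not pass, where 1.95% of all genes rose. An unadjusted p below 0.05 was found for 5 of the 35 (15.7% of all genes), and 28 of the 35 log2 differences were positive (54.3% of all genes). That lean was not particular to this list. Positive differences were also found for 14 of 18 stellate, fibroblast and smooth muscle genes, 7 of 9 macrophage genes and 15 of 21 caveolin partners. The counts were lower for hepatocyte genes (7 of 11) and other caveolae proteins (5 of 9). The median log2 difference of the 35 was 0.16 where that of all genes was 0.01. Besides Lyve1 the gene that rose was Flt4, VEGF receptor 3, from 4.83 ± 0.404 to 6.31 ± 0.794 RPKM (adjusted p = 0.0336). Flt4 passed under 11 of 21 alternatives; its call was lost without the 3 libraries together (adjusted p = 0.133) and without any single one of WT 1, 2, 3, 5 and 6 or Gcg KO 9, 10 and 12. Clec4g, a lectin of sinusoidal endothelium and the most abundant of the list, had 26.5 ± 4.08 and 32.9 ± 4.88 RPKM (adjusted p = 0.177). The summed level of the 35 genes was 222 to 286 RPKM in WT against 228 to 334 in Gcg KO, so the groups overlapped. In WT, 33 of the 35 endothelial genes had a higher mean than Cav1, and in Gcg KO only Clec4g did. Each caveolin was also divided by the 3 endothelial genes library by library. Relative to Pecam1, Cav1 was at 0.173 to 0.247 in the WT libraries and at 2.49 to 5.62 in the Gcg KO libraries, and Cav2 at 0.106 to 0.186 and at 0.198 to 0.410. Relative to Kdr, Cav1 was at 0.0767 to 0.155 in WT against 1.63 to 2.97 in Gcg KO, and Cav2 at 0.0681 to 0.123 against 0.135 to 0.259. Relative to Lyve1, Cav1 was at 0.183 to 0.639 in WT against 2.22 to 5.76 in Gcg KO, and Cav2 at 0.113 to 0.411 against 0.192 to 0.472. The groups overlapped for Cav2 divided by Lyve1 and did not overlap for the other 5 ratios. The caveolins were chosen on this contrast, so nothing is read from that count. For Cav1 no overlap was possible, since its lowest Gcg KO value was 8.70 times its highest WT value. None of the 3 endothelial genes varied that much over the libraries.

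Within each genotype, where n was 6, no relation of a caveolin to Pecam1, Kdr or Lyve1 passed adjustment over the 12 relations computed. The smallest p this exact test can give for a Pearson value is 0.00139. For Spearman it is higher, since the fully reversed order also counts. The strongest Pearson value was that of Cav1 with Kdr in Gcg KO, r = 0.84 (exact permutation test, p = 0.0375, adjusted 0.325) with rho = 0.77 (exact permutation test, p = 0.103, adjusted 0.483), and r was 0.58 without the 2 libraries farthest from the median of Kdr. Cav1 with Pecam1 gave r = 0.69 and rho = 0.66 in WT (exact permutation test, p = 0.138 and 0.175, adjusted 0.330 and 0.483). In Gcg KO it gave r = 0.77 and rho = 0.49 (exact permutation test, p = 0.0861 and 0.356, adjusted 0.325 and 0.533). Without the 2 farthest libraries these r were 0.50 and 0.54. Cav2 with Pecam1 gave r = 0.81 and rho = 0.89 in WT (exact permutation test, p = 0.0639 and 0.0333, adjusted 0.325 and 0.400). In Gcg KO the same pair gave r = -0.38 and rho = -0.14 (exact permutation test, p = 0.456 and 0.803, adjusted 0.607 and 0.803), with r of 0.89 and -0.84 without the 2 farthest libraries. Cav1 with Lyve1 gave r = -0.38 in WT and 0.44 in Gcg KO (rho = -0.60 and 0.71; exact permutation test, adjusted p of 0.607 for each r and 0.483 for each rho), with r of -0.27 and 0.90 without the 2 farthest libraries. The other 5 relations had r between -0.51 (Cav2 with Lyve1 in WT) and 0.64 (Cav2 with Kdr in WT), which became 0.63 and 0.35 without the 2 farthest libraries, so the first changed sign. Their Pearson values had adjusted p from 0.325 to 0.932 (exact permutation test). Their rho lay between -0.31 and 0.60, with adjusted p from 0.483 to 0.803 (exact permutation test). No value pooled over the uncentred levels of both genotypes is given, because the level of each caveolin splits the libraries by genotype. Values over all 12 libraries after the mean of each genotype was removed are given below.

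**Figure D4:**
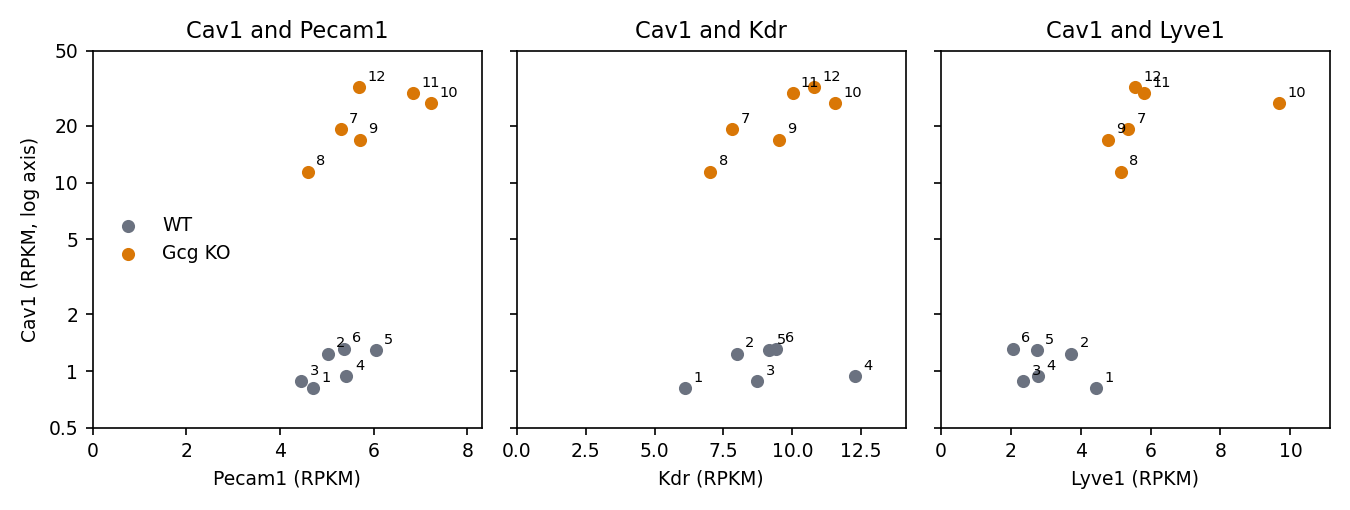
Cav1 (RPKM, log axis) against Pecam1, Kdr and Lyve1 (RPKM), each library a numbered point, grey for WT and orange for Gcg KO. The Cav1 levels form a cluster for each genotype, while Pecam1 and Kdr cover much the same range in both and Lyve1 is higher in the Gcg KO libraries.

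Markers of other cells that carry caveolins were read in the same way. Of 18 tested genes of stellate cells, fibroblasts and smooth muscle, 1 rose, 0 fell and 17 did not pass, where 1.95% of all genes rose. Their median log2 difference was 0.07, and 4 had an unadjusted p below 0.05, where 15.7% of all genes did. Their summed level was 162 to 201 RPKM in WT against 162 to 218 in Gcg KO. The 1 that rose was Rgs5, a G protein regulator of pericytes, from 6.44 ± 0.365 to 8.42 ± 0.514 RPKM (log2 difference 0.36 ± 0.06, adjusted p = 0.0036). The matrix proteins Dcn and Ecm1 had log2 differences of 0.08 and 0.03 (adjusted p = 0.720 and 0.951). The 9 macrophage genes (median 0.09) gave 0 calls and 0 unadjusted p-values below 0.05, with Clec4f at 0.16, Lyz2 at 0.02 and Cd5l at -0.03. Over all genes tested these shares were 3.87% and 15.7%, so 0 calls among 9 genes is near the background. Among mesothelial genes 3 were tested (Krt8, Krt18 and Upk3b) and 1 muscle gene (Des), with 0 called in either list. With so few genes tested, these counts say little about either cell type. Krt8 and Krt18 had WT means of 144 and 166 RPKM, against 0.473 for Upk3b, and Msln and Wt1 fell below the level tested. Des is also on the list of stellate cells, and the muscle genes Ckm, Mb, Acta1 and Tnnt3 fell below that level.

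Adipocyte genes, of which 11 were listed, gave a mixed picture beside Cav1. Of 7 tested, 2 rose and 5 did not pass, where 1.95% of all genes rose, and 4 of the 7 had an unadjusted p below 0.05, where 15.7% of all genes did. The median log2 difference was 0.56, and the summed level of the list was 26.0 to 34.1 RPKM in WT against 39.2 to 74.6 in Gcg KO, groups that did not overlap. Cfd, the serine protease adipsin, rose from 0.263 ± 0.218 to 12.1 ± 10.4 RPKM (log2 difference 3.63 ± 0.49, adjusted p = 7.9e-04). Cidec, a lipid droplet protein that fatty liver also expresses, rose from 0.518 ± 0.206 to 2.19 ± 1.38 RPKM (1.30 ± 0.26, adjusted p = 0.0125), and did not pass without the 3 libraries highest on the first component (1.21, adjusted p = 0.0759). Lipoprotein lipase (Lpl) ran from 5.75 to 8.36 RPKM in WT and from 7.80 to 16.9 RPKM in Gcg KO (log2 difference 0.57 ± 0.15, adjusted p = 0.0582). Pparg, the nuclear receptor of fat cell differentiation, had 4.59 ± 0.694 and 7.30 ± 2.53 RPKM (0.56 ± 0.19, adjusted p = 0.148). Fabp4, a fatty acid binding protein of adipocytes and capillary endothelium, had 9.23 ± 2.05 and 11.4 ± 2.15 RPKM (adjusted p = 0.350). Plin4 had 4.16 ± 1.81 and 3.48 ± 1.06 RPKM (adjusted p = 0.822), and Lipe 3.97 ± 0.644 and 4.36 ± 0.958 RPKM (adjusted p = 0.790). The rest of the list was at or near 0 in both genotypes. The adipokine Adipoq reached at most 0.138 RPKM in WT against 0.079 in Gcg KO. The droplet coat protein Plin1 reached at most 0.0458 and 0.0396, and the adipokine Retn at most 0.146 and 0.126. Lep was listed at 0 in all 12 libraries. Lpl, Pparg, Plin4, Lipe, Adipoq, Plin1, Retn and Lep were added after their values were seen.

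Epithelial lists complete the set. Of 3 tested cholangiocyte genes, 1 rose, where 1.95% of all genes did. This was Spp1 (osteopontin), which went from 17.8 ± 4.75 to 89.0 ± 79.4 RPKM (log2 difference 1.99 ± 0.39, adjusted p = 0.0112). Without Gcg KO 11, at 246 RPKM, the Gcg KO mean was 57.6 ± 21.8 RPKM (n = 5) and the log2 difference 1.62 ± 0.25 (limma adjusted p = 0.0029), still past the threshold. The duct keratin Krt19 and the duct transcription factor Sox9 did not pass (adjusted p = 0.788 and 0.130). Of 11 tested hepatocyte genes, 0 rose, 1 fell and 10 did not pass (median 0.01, 1 with an unadjusted p below 0.05). Over all genes tested, 1.92% fell and 15.7% had an unadjusted p below 0.05. The 1 that fell was Cps1, the first enzyme of the urea cycle, from 1085 ± 115 to 615 ± 78.1 RPKM (adjusted p = 2.2e-04). The part of any of these cell types in the caveolin difference was not tested.

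**Figure D5:**
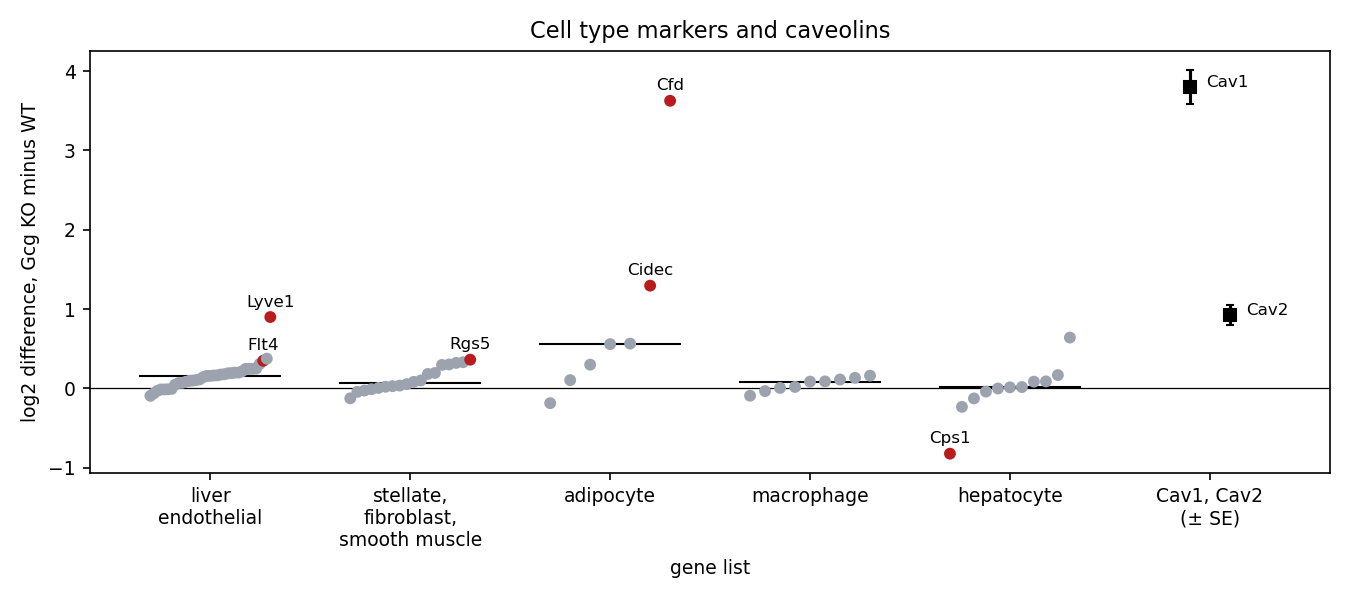
Log2 difference of expression, Gcg KO minus WT, for each tested gene of 5 marker lists, with the list's median as a black line, and for Cav1 and Cav2 with their standard errors (black squares). Red points passed the adjusted threshold (Lyve1, Flt4, Rgs5, Cfd and Cidec higher, Cps1 lower); grey points did not.

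Genes that tracked the caveolins from library to library were sought after the mean of each genotype had been removed, over 12 libraries and 10838 named genes. The values are a description, since the highest of so many correlations is high by selection. For Cav1 the 5 highest were Orc6, a subunit of the origin recognition complex (r = 0.92), Abhd2, a lipid hydrolase (0.89), Mccc1, an enzyme of leucine breakdown (0.89), Kdm3b, a histone demethylase (0.87), and Parvb, an actin-binding partner of integrin-linked kinase (0.87). The 20th gene still had r = 0.83. Kdm3b tracked Cav1 within Gcg KO (0.97) and not within WT (0.08), while the other 4 lay between 0.75 and 0.96 in both genotypes. For Cav2 the 5 highest were Psd3 (0.93), Tbce, a tubulin chaperone (0.90), Eno1b, a close copy of the glycolytic enolase gene Eno1 whose reads may be shared with it (0.90), Epc2 (0.90) and Nfrkb (0.90). None of the 5 for Cav1 was among the 5 for Cav2. On the same measure, Pecam1 was 129th of 11346 genes for Cav1 (r = 0.73), Kdr 749th (0.58) and Lyve1 4925th (0.19). For Cav2 they were at 0.09, 0.37 and -0.37, and Cav1 with Cav2 was at 0.09. The log2 level of Cav1 varied more in Gcg KO (SD 0.553) than in WT (SD 0.208), so Gcg KO libraries weigh more in its values. Within WT alone, r of Cav1 was 0.69 with Pecam1, 0.26 with Kdr and -0.38 with Lyve1. Within Gcg KO alone these were 0.77, 0.84 and 0.44. Abhd2 was lower in Gcg KO by level (14.4 ± 5.30 against 6.52 ± 2.78 RPKM), with a difference that missed the threshold (adjusted p = 0.0523). It passed under 5 of 21 alternatives (limma adjusted p of 0.0264 to 0.122).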

How the data were processed

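Polyadenylated liver RNA was sequenced in strand-specific libraries, per the labels' protocols. The authors deposited 1 table of RPKM values for 24475 genes and 12 libraries; the unit comes from the table's name and from its values, which are not whole. CASAVA 1.8.2, FastQC and the build GRCm38 come from the submitters' processing notes. Not given in the sources used here: the aligner, counter, annotation and use of strand, so genes with close copies are uncertain. Entrez identifiers matched RefSeq for 99.6% of genes.

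Genes with a mean of at least 0.5 RPKM were tested on log2(RPKM + 0.5), a scale that understates the change of low genes, with limma 3.58.1 (R 4.3.3), a mean-variance trend, no covariate, two-sided tests, Benjamini-Hochberg adjustment over all 11347 genes and a threshold of 0.05. Adjusted p-values are from this fit unless named otherwise. It was tested on simulated data. Within-group correlations used exact two-sided permutation. Depth was read from the lowest common step of RPKM times transcript length (76 to 111 of 397 to 468 low genes per library within 1%), and transcript lengths are from GENCODE. Named genes were the caveolins, Pecam1, Kdr, Lyve1, tested caveolae and neighbouring genes, up to 3 per other list (called, then most abundant) and the 5 most like each caveolin. Members and lists were chosen with earlier results of these data known. No gene set test was run.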

Additional observations from a re-analysis of the deposited data

Results flagged for a closer look

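Values of 57 named genes were examined for a library far from the other 5 of its group, by the gap to its nearest neighbour as a share of the group's range. Chance alone flags about 1 in 20 of the 114 groups, and 7 were found; neither caveolin was among them. Lyve1 was at 9.68 RPKM in Gcg KO 10, where the next Gcg KO library had 5.82. Spp1 was at 246 RPKM in Gcg KO 11, where the next had 80.8, and this is the library with the least Cav2 of its group. Bin1 was at 2.65 RPKM in the same library, below 4.87 in the next. Tes, a neighbour of the caveolins, was at 0.986 RPKM in WT 1, above 0.436 in the next. Adra1b was at 29.6 RPKM in WT 2, above 24.6 in the next. Scarb1 was at 72.7 RPKM in WT 4, above 55.1 in the next. Cd5l was at 19.1 RPKM in WT 2, below 26.4 in the next.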

How the results depend on the processing

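The comparison was repeated under 21 alternatives: other pseudocounts, filters, scalings, weights and variance priors, without the 3 libraries highest on the first component, and without each library in turn. The log2 difference of Cav1 lay between 3.43 and 4.20 and that of Cav2 between 0.72 and 1.21. The highest value of Cav2, 1.21 with a pseudocount of 0.1, was the only one that moved by more than the spread between libraries; at a mean of at least 2 RPKM Cav2 was not fitted. None of the 8 named genes that passed changed sign. Among the 47 named genes that did not pass, 17 changed sign under at least 1 alternative, to at most 0.12 (Krt18, without the 3 libraries).

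Genes called numbered 277 to 471 with 1 library left out (277 without WT 3), against 439. Calls among caveolin partners were 0 with no filter, 0 without the trend, 0 without the 3 libraries and 0 to 1 with 1 library left out. Endothelial calls were 1 with no filter, 1 without the 3 libraries and 1 to 2 with 1 library left out. Adipocyte calls were 1 at a mean of at least 2 RPKM, where Cidec was not fitted, and 1 without the 3 libraries. They were 3 with array weights and 2 to 3 with 1 library left out. Of the 5 genes most like Cav1, 3 remained with a pseudocount of 1 and 1 without the 3 libraries; for Cav2, 3 remained after quantile normalization and 1 without the 3 libraries. With 1 library left out, r within WT ran from -0.40 to 0.71 for Cav1 with Kdr, from -0.62 to 0.11 for Cav1 with Lyve1 and from -0.65 to 0.12 for Cav2 with Lyve1. Within Gcg KO it ran from -0.19 to 0.39 for Cav2 with Kdr (-0.42 after quantile normalization) and from -0.66 to 0.045 for Cav2 with Pecam1. The cause was not tested. Depth limits the caveolins in WT, where each rested on at most 47 reads per library. No paired analysis was possible because the labels give no pairing between the groups.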
